A study of Mus musculus with 3 samples.

Results

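Mitogen-activated protein kinase kinase kinases (MAP3K) are the entry kinases of the MAP kinase cascades, and the crosslinking of the splicing factor RBFOX2 to the transcripts of 8 of them, Map3k1, Map3k2, Map3k3, Map3k4, Map3k5, Map3k7, Map3k11 and Map3k13, was examined in mouse hepatocytes. The clusters of crosslink positions assigned to these genes were those on the strand of the gene whose midpoint fell inside its span in GENCODE M21 on GRCm38. They numbered 171 of 87021 in the deposited list, in 8 of 10744 genes with a cluster, and they summed to 14792 counts. The genes were selected on the summed counts of these clusters, Map3k13 having been noted for its high sum, so the gene totals below are descriptions without a test. Exon and intron numbers follow the longest coding transcript of each gene.

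The clusters came from eiCLIP, a variant of individual-nucleotide-resolution crosslinking and immunoprecipitation in which the start of each cDNA marks a crosslinked nucleotide. Primary hepatocytes of C57BL6/J mice kept on a control diet were plated overnight, UV irradiated and precipitated with an antibody to RBFOX2 (RBM9) in 3 libraries, for each of which the labels give 3 livers, whereas the study's methods give a pair of mice per culture. These libraries form a single group with no other genotype, diet or treatment, and the authors pooled them before calling clusters. No value therefore has a spread between libraries, and the 95% intervals given here (Poisson for counts, Wilson for shares) cover counting error only. Of 8 hepatocyte markers, 7 held clusters, with a median summed count of 929, and Serpina1a was at 0. Among the 4 markers each of Kupffer, endothelial and stellate cells 1 held clusters, the highest sum being 150 counts, and the 4 cholangiocyte markers held none.

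In a MAP kinase cascade, a MAP3K receives a signal from receptors, small GTPases or cell stress and phosphorylates a MAP2K, which in turn activates a MAP kinase of the ERK, JNK or p38 families. In the liver these routes carry the responses to cytokines, bile acids, lipid load and oxidative stress. RBFOX2 binds UGCAUG or the core GCAUG in pre-mRNA, and members of its family are known to favour exon inclusion from the intron downstream of an exon and exon skipping from the intron upstream. The position of a cluster relative to alternative exons was therefore recorded for each gene.

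Crosslinking was spread very unevenly over the family. Map3k13 had 71 clusters and 12705 counts (12485 to 12928), which placed it at rank 7 of 10744 genes. Map3k5 followed with 55 clusters and 1168 counts (1102 to 1237), and Map3k7 with 15 clusters and 349 counts (313 to 388). Map3k4 had 251 counts (221 to 284) in 12 clusters and Map3k1 had 188 (162 to 217) in 10. At the low end were Map3k11 with 61 counts (46.7 to 78.4) in 4 clusters, Map3k3 with 41 (29.4 to 55.6) in 2, and Map3k2 with 29 (19.4 to 41.6) in 2. The counting intervals of Map3k3 overlapped those of Map3k2 and of Map3k11, its neighbours in this order. The counts were not divided by RNA abundance, so that more transcript and more crosslinking per transcript cannot be told apart.

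Scaled to gene length, the order among the lower genes changed. Per kilobase of gene span, Map3k13 held 91.3 counts, Map3k7 5.88, Map3k5 5.61, Map3k11 4.32, Map3k1 3.00, Map3k4 2.75, Map3k3 0.579 and Map3k2 0.394. The median over the 9191 protein-coding genes with a cluster was 2.16 counts per kilobase, with quartiles of 0.731 and 5.79. Map3k7 exceeded 75.3% of those genes and Map3k5 74.4%, whereas Map3k3 exceeded 20.8% and Map3k2 15.2%. Apart from Map3k13, at 98.7%, the highest of the family therefore lay near the upper quartile.

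**Figure D1:**
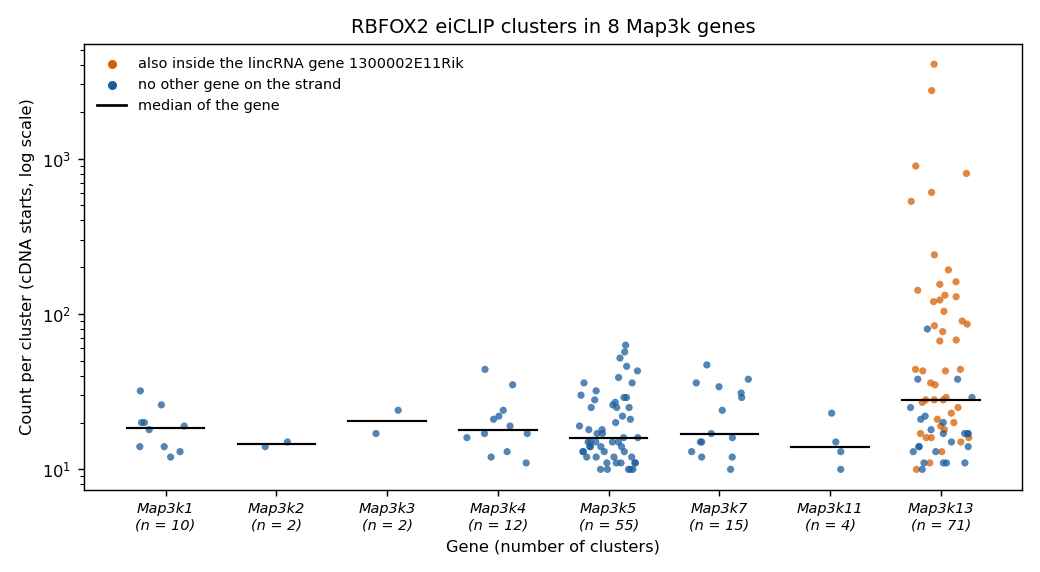
Count of every cluster in the 8 genes (1 point per cluster, log axis, cDNA starts pooled over 3 libraries); the black bar is the median of the gene, and orange points also lie inside the lincRNA gene 1300002E11Rik. Clusters of the other 7 genes stay between 10 and 63 counts, and those above 80 counts in Map3k13 are all orange.

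Apart from Map3k13, the individual clusters were ordinary in height. Counts in the other 7 genes ran from 10 to 63 with a median of 17, the same median as over all 87021 clusters. Of these 100 clusters, 8 (8%) reached the top 10% of counts, set at 39 or more, against 10.2% of all clusters. With Map3k13 the number was 35 of 171. Introns held 154 of the 171 clusters (90.1%, 84.7 to 93.7%), and 86 of the 100 outside Map3k13 (86.0%, 77.9 to 91.5%). The intronic share over all clusters is not given beside these, so they are not read as a trait of the family.

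Map3k13 (ENSMUSG00000033618.7, chromosome 16, 21794346 to 21933439, plus strand) encodes LZK, a leucine zipper-bearing kinase that acts upstream of JNK. Its high sum came from a short stretch at the 5′ end of the gene, where a second gene lies on the same strand. That gene, the lincRNA gene 1300002E11Rik (ENSMUSG00000097290.9, 21794318 to 21809040), overlaps the first exon of Map3k13, and its 8 transcripts all use an exon with the same ends as exon 2 of Map3k13 (21795850 to 21795975, 126 nt). Within the lincRNA span lay 47 of the 71 Map3k13 clusters and 12209 of the 12705 counts (96.1%). The remaining 24 clusters, inside Map3k13 only, held 496 counts (453 to 542).

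The intron shared by both genes after exon 2 carried most of this signal. It runs from 21795976 to 21800714 (4739 nt) before the next lincRNA exon, and is the beginning of the 95908-nt intron 2 of Map3k13. Only 1 of the Map3k13 transcripts used, the longest, spans exon 2, whereas 3 span the coding exon that starts at 21898489. The shared intron held 36 clusters with 11927 counts, or 93.9% of the Map3k13 sum, at 2517 counts per kilobase. Only 5 clusters with 125 counts lay in annotated lincRNA exons, so neither transcript's exons accounted for the sum. Reads from an intron that 2 genes share on the same strand cannot be assigned to either, and the share of each is unknown.

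The 5 highest clusters of Map3k13 all lay in this intron, within 609 nt of each other. The highest, at 21797029 to 21797108, held 4044 counts and began 1053 nt after exon 2. It exceeded 99.96% of all clusters. The second, at 21797510 to 21797550, held 2737 counts. Smaller ones at 21797625 to 21797637, 21797176 to 21797182 and 21797563 to 21797577 held 895, 802 and 606 counts. The first and second together made up 53.4% of the Map3k13 sum and all 5 made up 71.5%. Neither gene has an annotated exon in this stretch, and the annotated transcripts do not cover it, so its sequence is not shown.

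**Figure D2:**
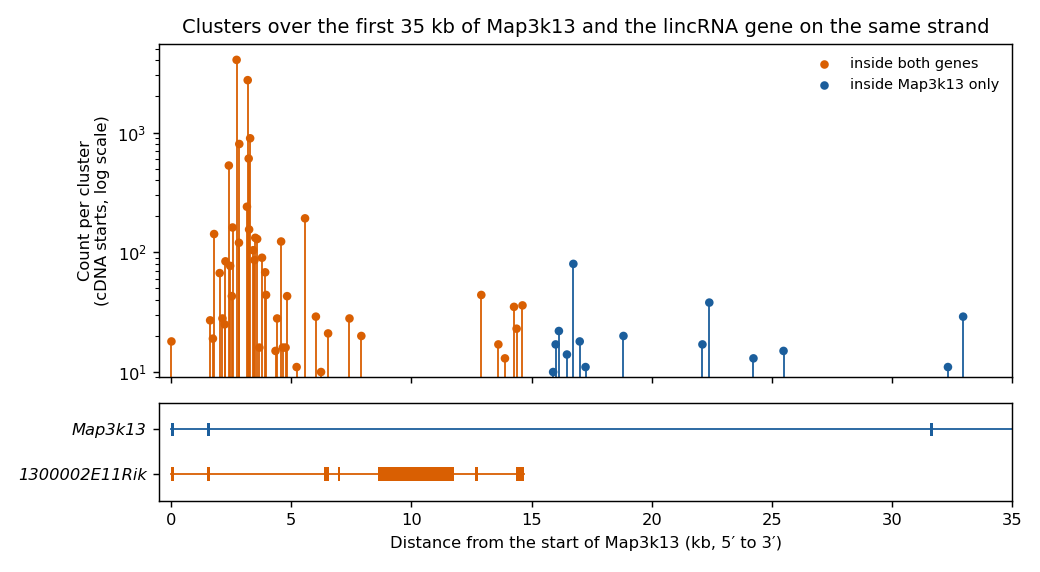
Count per cluster (log axis) over the first 35 kb of Map3k13, with distance from the gene start in kb and, below, the annotated exons of Map3k13 and of 1300002E11Rik as boxes. The tallest points, up to 4044 counts, stand in the shared intron between the second exon of both genes and the next lincRNA exon, and points inside Map3k13 only do not pass 80 counts.

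Averaged over the span beyond the lincRNA, Map3k13 lay within the range of the other members per kilobase. Its 24 remaining clusters ranged from 10 to 80 counts with a median of 17, at 3.99 counts and, per 10 kb, 1.93 clusters over the rest of the span. Per kilobase this lay between Map3k11 and Map3k1, and a sum of 496 counts would rank 793 of all genes. The sums of those genes include any clusters shared with another gene, so this rank is not like for like. The average hides an uneven placement. Between 15.9 and 25.5 kb from the gene start, in the stretch after the lincRNA, lay 12 of the 24 clusters, with 275 counts. They lay before the next annotated Map3k13 exon, at 31.6 to 31.7 kb, which the longest transcript does not use. The other 12, with 221 counts, lay after that exon, between 32.3 and 137.5 kb. The 80-count cluster, at 21811010 to 21811161, lay in the intron, 15034 nt after exon 2 and outside the lincRNA. After the start of the coding sequence only 3 clusters with 50 counts were found, of which 1, of 25 counts, lay in the 3′ UTR. No exon of Map3k13 met the definition of a cassette exon.

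Within the family, Map3k13 alone had clusters shared with another gene. None of the 100 clusters in the other 7 genes lay inside another gene of the same strand. Among all protein-coding genes with a cluster, 519 of 9191 (5.65%) had 90% or more of their count in clusters that also fell in another gene of the strand, and Map3k13 is 1 of these. The genes nearest to Map3k13 in summed count were the lincRNA gene itself (12209 counts), Gphn (11755), the lincRNA Xist (10045), Lars2 (9887) and Selenop (9531). Their concentration varied. The highest cluster held 31.8% of the sum in Map3k13, 65.3% in Gphn, 14.4% in Xist, 90.4% in Lars2 and 66.7% in Selenop.

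One window of Map3k13 with sequence held GCATG, the DNA form of the RBFOX core. It belongs to a cluster of 36 counts at the 3′ end of the lincRNA, chromosome 16, 21808962 to 21808975, in an exon of that gene and an intron of Map3k13. The window of the cluster with 50 nt on each side (21808912 to 21809025, plus strand, GENCODE M21 transcript sequence on GRCm38) is shown because it is the single motif match among the members, with the capitals marking GCATG.

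Map3k13 cluster window: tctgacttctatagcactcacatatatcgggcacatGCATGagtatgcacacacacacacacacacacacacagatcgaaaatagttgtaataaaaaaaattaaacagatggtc

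The match starts at base 37 of this window, ahead of the cluster itself, and is preceded by T, so that it also matches TGCATG. A search on the transcribed strand found GCATG in 1 of the 7 windows of the members that annotated exons cover in full (14.3%, 2.57 to 51.3%), against 3871 of 19151 windows of clusters in genes (20.2%). With 7 windows this share carries little information. The other 164 clusters, among them every cluster in the shared intron, had no complete window.

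Map3k7 (ENSMUSG00000028284.13, chromosome 4, 31964097 to 32023467, plus strand) encodes TAK1, the kinase that TGF-β, interleukin-1 and TNF receptors engage through TAB adaptor proteins and that feeds both JNK and NF-κB. Crosslinking in this gene was gathered around a cassette exon. Exon 12 (31994874 to 31994954) is coding, 81 nt long and so keeps the reading frame. Of the 6 annotated transcripts that span it, 2 use it, 3 skip it and 1 extends it to 31995010. Introns 11 and 12, which flank it, held 11 of the 15 Map3k7 clusters and 295 of the 349 counts (84.5%, 80.4 to 87.9%) in 15.99% of the gene span. Of the 16 introns of the longest transcript, these 2 were the only ones with a cluster.

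The exon is shown with the stretch that the longer form adds, since the clusters surround it (31994874 to 31995010, plus strand, GENCODE M21 transcript sequence on GRCm38), with exon 12 in capitals.

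Map3k7 exon 12: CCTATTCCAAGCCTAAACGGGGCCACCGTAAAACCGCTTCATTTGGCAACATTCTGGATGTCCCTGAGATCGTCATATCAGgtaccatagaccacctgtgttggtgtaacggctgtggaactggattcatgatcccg

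These 137 nt contain no GCATG and no cluster. The exon ends at the gt of the 5′ splice site that the longer form reads through. The introns beyond it are not in the transcript sequences, so the clusters themselves could not be searched for the motif.

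Upstream of exon 12, intron 11 (2357 nt) held 7 clusters. Within 500 nt of the exon were 4 of them, with 16 counts at 116 nt from the exon, 38 at 141 nt, 31 at 246 nt and 34 at 488 nt. A further group lay at 1038 nt (47 counts, the highest of the gene, 31993822 to 31993835), 1180 nt (36 counts) and 1381 nt (29 counts). These clusters were narrow, from 4 to 22 nt wide. Together they held 231 counts, 66.2% of the gene (61.1 to 70.95%), in 3.97% of its span, or 98.01 counts per kilobase of intron.

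Downstream of exon 12, crosslinking was sparser. A cluster of 15 counts lay 100 nt past the exon (31995055 to 31995075), which is 44 nt past the end of the longer form, and one of 24 counts lay 291 nt past it. Another pair, of 12 and 13 counts, lay 4693 and 5435 nt away. The 4 held 64 counts in 7134 nt, or 8.97 counts per kilobase. The counts per kilobase were thus higher upstream than downstream, as a description of these 11 clusters.

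**Figure D3:**
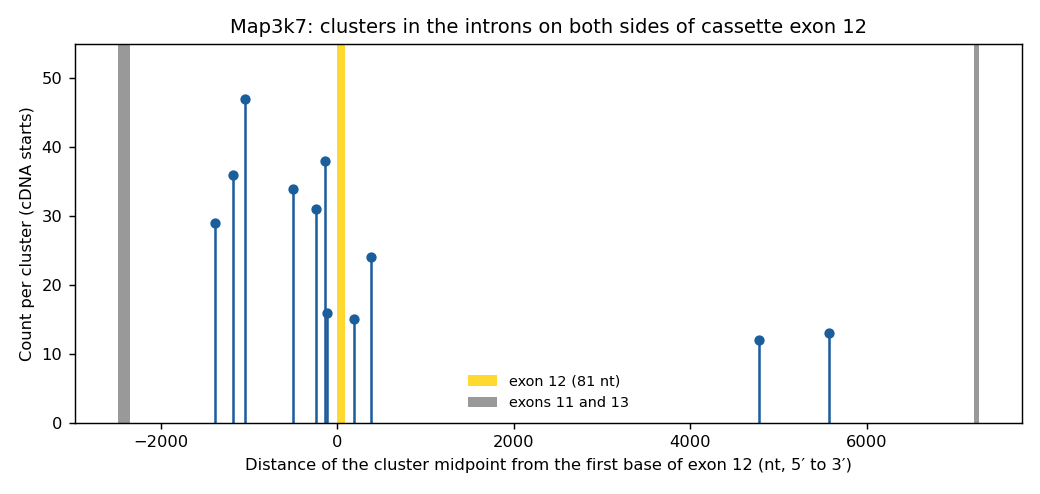
Count of each cluster in the introns around Map3k7 exon 12, plotted at the distance of its midpoint from the first base of the exon in nt; the yellow band is exon 12 and the grey bands are exons 11 and 13. The 7 upstream clusters hold 16 to 47 counts and the 4 downstream clusters 12 to 24.

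A run of clusters this close to a cassette exon was uncommon. Clusters numbering 3 or more in the 300 nt of intron upstream were found for 33 of 12550 cassette exons (0.263%) in genes with a cluster, exon 12 of Map3k7 among them. This measure was chosen after the Map3k7 values had been seen, and it is given as a description only. It depends on how clusters were split. The 3 clusters upstream of exon 12 would be joined by merging within 200 nt, a setting not applied to this share. The second cassette exon of the gene, exon 16 (32017037 to 32017152, 116 nt, skipped by 2 of 5 transcripts), does not keep the frame. A cluster of 10 counts, the lowest value in the list, overlapped its start at 32017012 to 32017090, and neither flanking intron held another. The nearest one downstream, of 17 counts, lay in the 3′ UTR.

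Map3k5 (ENSMUSG00000071369.11, chromosome 10, 19934472 to 20142753, plus strand) encodes ASK1, a kinase held inactive by thioredoxin and released by oxidative stress to activate JNK and p38. Its 55 clusters were dispersed, 51 of them in introns, and 14 of its 29 introns held at least 1. The highest held 5.39% of the sum, the lowest such share in the family. It lay in intron 1 at 19944194 to 19944279 with 63 counts. Intron 1 (65491 nt) held 17 clusters and 345 counts, or 5.27 counts per kilobase, close to the value over the whole gene.

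Intron 3 of Map3k5 was among the introns that departed from this even spread. It follows exon 3 (20019558 to 20019581), an in-frame microexon of 24 nt that 2 of 4 transcripts skip. The exon is shown because of its size and because of the introns with more than 2 clusters the densest follows it (plus strand, GENCODE M21 transcript sequence on GRCm38). All its bases are exonic and in capitals.

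Map3k5 exon 3: GAAATTATTTGCCAGAAGAATACT

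In the 4026 nt of intron 3 lay 7 clusters with 219 counts, at 17.4 clusters per 10 kb and 54.4 counts per kilobase. They held 18.75% of the Map3k5 counts (16.6 to 21.1%) in 1.93% of the span. In order from the exon, they held 15 counts at 704 nt, 52 at 1115 nt, 10 at 1964 nt, 13 at 2371 nt, 57 at 2658 nt, 36 at 3168 nt and 36 at 3305 nt. The 57- and 52-count clusters (20022240 to 20022340 and 20020697 to 20020821) came next after the highest of the gene. None fell within 500 nt of the microexon, and the last of them lay 678 nt before exon 4. Intron 2 before the microexon, at 18852 nt, held only 2 clusters of 25 counts each, the nearer at 14182 nt. This intron and those named next were singled out after their values had been seen.

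Further clusters of Map3k5 lay toward its 3′ end. The constitutive exon 21 is 21 nt long and had a cluster of 43 counts (20111992 to 20112126) 193 nt downstream, in intron 21, which held 5 clusters and 126 counts. A cluster of 46 counts (20118278 to 20118399) ran from the end of exon 22 across most of the 92-nt intron 22. Intron 16, of 428 nt, held 2 clusters with 39 counts. One of these, of 26 counts (20100005 to 20100106), also reached into exon 17, which starts at 20100061. Per kilobase, these short introns 22 and 16 held 500 and 91.1 counts, more than the 54.4 of intron 3. The midpoint rule gave them the whole count of clusters that partly lie in exons, so these rates are not like for like with intron 3. Exons of the coding sequence carried 4 clusters, with 13 to 29 counts.

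**Figure D4:**
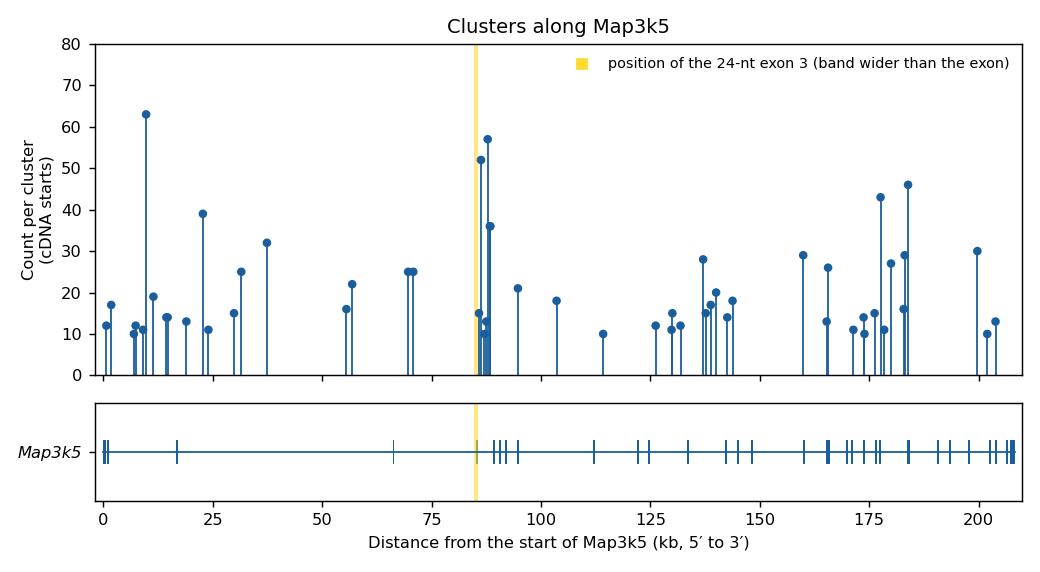
Count of each of the 55 clusters along Map3k5 against distance from the gene start in kb, with the annotated exons below and the place of the 24-nt exon 3 in yellow. A dense group of 7 clusters with up to 57 counts follows exon 3, and the highest cluster, of 63 counts, stands in intron 1.

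Map3k4 (ENSMUSG00000014426.9, chromosome 17, 12227621 to 12318796, minus strand) encodes MEKK4, which acts upstream of p38 and JNK. Clusters lay in 7 of its 26 introns, and no intron held more than 3. The highest, of 44 counts (12234373 to 12234531), lay in intron 23 and was 519 nt from the exon before it. Exon 2 (12277921 to 12278111, 191 nt) is skipped by 1 transcript, which is not protein coding, and had a cluster of 21 counts 184 nt downstream (12277732 to 12277736). The window of that cluster is one of the few intronic ones with sequence and is shown for that reason (12277682 to 12277786, minus strand, GENCODE M21 transcript sequence on GRCm38), with the 5 nt of the cluster in capitals.

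Map3k4 cluster window: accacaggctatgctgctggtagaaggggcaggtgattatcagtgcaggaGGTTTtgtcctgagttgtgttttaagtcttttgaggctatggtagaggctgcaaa

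It contained no GCATG, which says only that these letters are not in this window. The other cassette exon of the gene, exon 17 (12242650 to 12242805, 156 nt, in frame, skipped by 1 of 2 transcripts), had no cluster in either flanking intron. The nearest lay 7369 nt upstream (19 counts) and 8118 nt downstream (44 counts). Crosslinking in Map3k4 was thus not gathered around its in-frame cassette exon as it was in Map3k7.

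The remaining members had few clusters and no annotated cassette exon. All internal exons of Map3k2, and many of Map3k1 and Map3k3, are spanned by only 1 of the transcripts used. Such exons could not meet the definition. In Map3k1 (ENSMUSG00000021754.17, chromosome 13, 111746428 to 111808993, minus strand), which encodes MEKK1, a kinase that also carries ubiquitin ligase activity, 5 of 10 clusters with 95 of 188 counts lay in the 32484-nt intron 1. Among them was the highest, of 32 counts, at 111787902 to 111788081. A 20-count cluster lay 116 nt before an exon, in intron 4. Map3k2 and Map3k3 encode MEKK2 and MEKK3, which act upstream of ERK5. The Map3k2 clusters (ENSMUSG00000024383.9) held 14 counts in intron 1 and 15 in coding sequence. The Map3k3 clusters (ENSMUSG00000020700.11, chromosome 11, 106084613 to 106155446, plus strand) held 17 counts in intron 1 and 24 in intron 6 (106126341 to 106126509). In Map3k11 (ENSMUSG00000004054.9, chromosome 19, 5688742 to 5702865, plus strand), encoding the mixed-lineage kinase MLK3, the highest cluster, of 23 counts, lay in coding sequence at 5700699 to 5700834.

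Over all members, 14 exons met the definition of a cassette exon, an internal exon of a coding transcript that at least 1 spanning transcript skips. Of these, 10 were in Map3k5, 2 in Map3k7 and 2 in Map3k4, and 9 of the Map3k5 exons counted only because 1 transcript skips a long run of them. The 300 nt of intron upstream contained a cluster midpoint for 1 of them (7.14%, 1.27 to 31.5%), against 6.25% of 12550 cassette exons in all genes with a cluster. Downstream it was 2 (14.3%, 4.01 to 39.9%) against 7.23%, and on either side the same 2, exon 12 of Map3k7 and exon 2 of Map3k4, against 11.9%. These shares cannot be told from the background with 14 exons. Constitutive exons of the members had a flanking cluster in 11 of 75 cases (14.7%, 8.39 to 24.4%), against 8.17% in all genes, so flanking clusters were not limited to cassette exons.

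The rest of the cascade was read from 50 genes in 6 tiers, of which 32 held 422 clusters and 9650 counts. Map2k1, which encodes the ERK activator MEK1, led them with 92 clusters and 3132 counts, or 46.2 counts per kilobase. This was below the 12705 counts of Map3k13 with the shared intron, but above the 496 that lie outside the lincRNA span. The sums of Map2k1 and the other cascade genes include any clusters shared with another gene, so they are not like for like with the 496. The median summed count over the 7 MAP2K genes was 198, with clusters in 6. After Map2k1 came Map2k5, the activator of ERK5, with 425 counts, and Map2k4, an activator of JNK, with 356. Of the 14 other MAP3K genes 8 held clusters, among them Araf, a kinase of the ERK route, with 203 counts and Map3k6 with 157. Their median was 29, against 219.5 for the 8 members, which had been selected on counts. The share of all annotated genes with a cluster is not given here, so the numbers per tier describe the listed genes only.

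The lower tiers and partners are described in the same way, without a share over all genes. Among 13 MAP kinases 8 held clusters, with Mapk6 at 397 counts and the p38α gene Mapk14 at 384. The JNK1 gene Mapk8 had 1 cluster of 15 counts. All 3 genes for TAK1 partners held clusters, at 92 counts in Tab2, 40 in Tab3 and 26 in Tab1, each below the 349 counts of Map3k7. Per kilobase these were 1.82, 0.662 and 0.910, against 5.88 in Map3k7. Of 7 MAP4K genes, which act above the MAP3K tier, 5 held clusters, with 762 counts in Map4k4, 554 in Map4k3 and 244 in Mink1. Among 6 scaffold genes only the JNK scaffolds Spag9 (696 counts) and Mapk8ip3 (413) did.

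**Figure D5:**
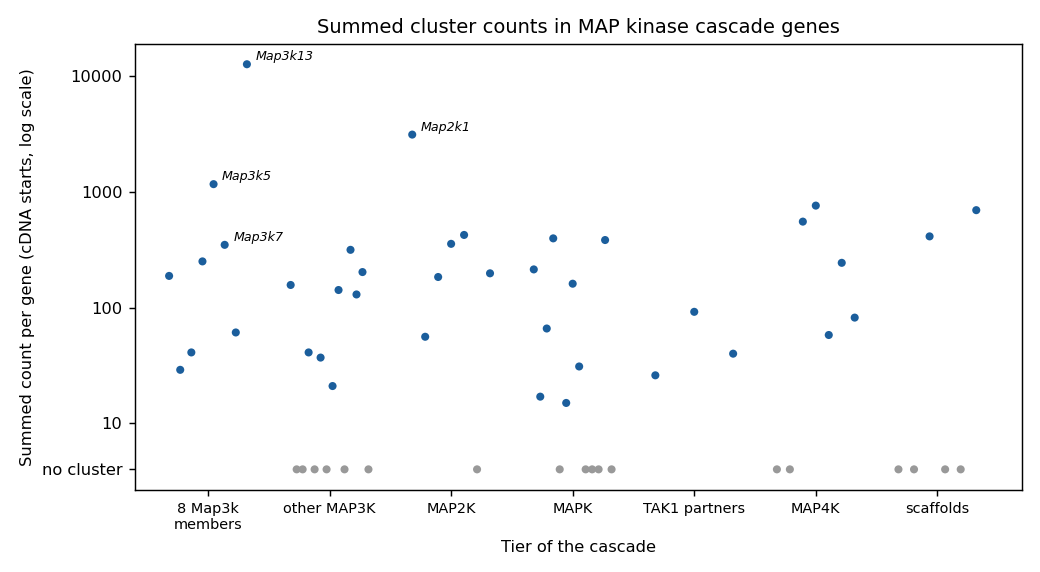
Summed count per gene (log axis, cDNA starts; 1 point per gene, grey points at the bottom for genes with no cluster) for the 8 members and the 6 other tiers of the cascade. Map3k13 stands highest at 12705 counts and Map2k1 next at 3132, but the part of Map3k13 outside the lincRNA span holds 496 counts, below Map3k5, Map4k4, Spag9 and Map4k3. Sums of the 6 other tiers include any clusters shared with another gene.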

How the data were processed

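Samples were 3 eiCLIP libraries of 1 group. Per the study's methods and processing notes, the authors trimmed adaptors (cutadapt), aligned reads to GRCm38 (STAR 2.4.2a), kept uniquely mapped reads, removed PCR duplicates by random barcode and clustered cDNA starts with Paraclu. The deposited value per cluster is a whole-number count of at least 10, read here as cDNA starts pooled over libraries. It is not normalized, and no depth per library is known. Input libraries were not used here.

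Clusters (1-based) were assigned by midpoint and strand to GENCODE M21 genes (the study named an earlier release). A cluster inside overlapping genes counted for each. Distances run between nearest edges. Retained-intron transcripts were not used as exons. Cassette exons were skipped by at least 1 spanning transcript, and constitutive exons were used by all of at least 2. Sequence came from 141767 annotated transcripts (0 length mismatches). Python 3.11.15 with numpy 2.4.6, pandas 2.3.3, scipy 1.17.1 and matplotlib 3.10.9 was used, and the assignment was tested on simulated data. Values are descriptive, with Poisson and Wilson 95% intervals and no test.

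The members, gene lists and rules were chosen with earlier results of these data known. Named were, per member, the highest cluster and clusters within 500 nt of a cassette exon, the 5 highest of Map3k13, the 5 genes nearest to it in sum and the 3 highest of each tier, of which some are not reported here. Other named features were picked after their values were seen. Alternatives changed the count filter, merging, overlap rule, intron window, transcripts and motif.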

Additional observations from a re-analysis of the deposited data

Results flagged for a closer look

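Clusters on the strand opposite to a member enter no comparison above, and 2 were found. Opposite Map3k3, a cluster 2 nt wide (chromosome 11, 106150649 to 106150650, minus strand) held 25 counts, against a highest value of 24 on the gene's own strand. Opposite Map3k5, a cluster 10 nt wide (chromosome 10, 20119893 to 20119902, minus strand) held 52 counts, which on the gene's own strand only the clusters of 63 and 57 counts exceeded and 1 other equalled. Neither position has an annotated gene on that strand, and the other 6 members had no such cluster. Both are given because they enter no comparison. The list holds no cluster under 10 counts and no control libraries were used here, so no background level was available for them.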

How the results depend on the processing

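The sum of Map3k13 depended on how shared clusters were treated. It fell to 496 counts when clusters inside another gene were left out and to 8661 without its highest cluster. At or above the median count of 17 the members kept 104 clusters, with 12471 counts in Map3k13 and 256 in Map3k7. In the top 10% of counts they kept 35 clusters, with 11838 and 47 counts, and 0 cassette exons with a flanking cluster, and no motif window was left. Without its highest cluster Map3k7 held 302 counts. The number of cassette exons with a flanking cluster, 2 of 14, became 0 with introns of 100 nt, 4 with 1000 nt, 4 with any overlap of cluster and window, and 1 of 13 with protein-coding transcripts only. It stayed at 2 with 500 nt, with merged clusters and, in an alternative chosen after seeing the data, without the Map3k5 transcript that skips 10 exons (2 of 5). Merging within 200 nt left 127 clusters, and the motif share ranged from 8.33 to 20% over its other alternatives. Leaving out a library was impossible, since the libraries were pooled before clusters were called. No paired analysis was possible because the labels hold 1 group only. Counts under 10 are not in the list, so a gene without a cluster is not shown to lack crosslinking.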
